A study of Mus musculus with 8 samples.

Results

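The scavenger and debris uptake receptors described here are 10 genes chosen by name: Cd36, Msr1, Olr1, Marco, Scarb1, Cd68, Colec12, Mertk, Axl and Stab2. They were found by symbol among the 46078 Ensembl gene identifiers of the count tables, and each matched 1 identifier. Bulk RNA sequencing was performed on stroke infarcts of 8 wild-type male C57BL/6J mice aged 18 months, and every animal had undergone distal hypoxic (DH) stroke, in which occlusion of a distal middle cerebral artery is followed by a period of hypoxia. The vehicle group (n = 4) received phosphate-buffered saline, and the HPβCD group (n = 4) received 2-hydroxypropyl-β-cyclodextrin, a cyclic oligosaccharide that entraps lipids, at 4 g/kg. Injections were subcutaneous, began 1 week after stroke and were given 3 times per week for 6 weeks, and tissue was collected 7 weeks after stroke. The comparison asks whether repeated HPβCD treatment altered the receptors through which phagocytes take up lipid debris. No animal without stroke and no untreated animal enters it, and infarcts were dissected by eye, so the amount of neighbouring tissue in each piece was not controlled.

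Scavenger receptors are surface or endosomal proteins that bind modified lipoproteins, apoptotic cells and other debris and deliver them to lysosomes. In brain, macrophages and microglia use them to ingest myelin fragments, and a macrophage that takes up more lipid than it can export stores the excess as droplets and becomes foamy. Cd36 and Scarb1 encode class B receptors, Msr1, Marco and Colec12 class A receptors, Olr1 a lectin-like receptor, and Cd68 a glycoprotein of macrophage endosomes and lysosomes. Mertk and Axl encode receptor tyrosine kinases that recognise phosphatidylserine on dying cells through the bridging ligands Gas6 and protein S. Stab2 encodes a large receptor best known from sinusoidal endothelium, where it clears hyaluronan.

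None of the 9 receptor genes that could be tested passed the threshold of the edgeR quasi-likelihood test (adjusted p under 0.05 after Benjamini-Hochberg adjustment over 14736 genes), against 1.95% of all tested genes. Of the 9, 3 had an unadjusted edgeR p under 0.05, and DESeq2 and limma-voom each called 3. DESeq2 called 3.83% of 26507 genes higher, a set not filtered on low counts, and limma-voom called 10.9% of 14736 genes higher. Cd68, the receptor gene nearest to the threshold, averaged 236 ± 52.1 CPM (counts per 1000000 library counts) with HPβCD and 128 ± 22.6 CPM with vehicle (mean ± SD, n = 4 each). Transcripts of Cd68 and Axl were higher in every HPβCD infarct than in any vehicle infarct, as were those of 8.85% of all tested genes. Msr1, Olr1 and Stab2 had fitted differences of at most 0.10 on the log2 scale. All 9 fitted log2 fold changes were at or above 0 with a median of 0.48, and over all tested genes 45.9% were above 0 with a median of -0.045.

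The promoters of Cd68 and Axl are shown because these are the receptor genes whose groups did not overlap. That of Olr1 is shown because it is the other receptor promoter searched that held an AP-1 match, beside that of Cd68. Each sequence is the 250 bases before the RefSeq transcription start on GRCm38.p6, written 5′ to 3′ along the gene. Capitals mark the AP-1 motif TGANTCA and the PU.1 core GAGGAA, searched on both strands, where TTCCTC is the core on the opposite strand. PU.1 is a transcription factor of the macrophage lineage, and AP-1 factors respond to growth and stress signals.
Cd68 (chr11:69666171-69666420, minus strand): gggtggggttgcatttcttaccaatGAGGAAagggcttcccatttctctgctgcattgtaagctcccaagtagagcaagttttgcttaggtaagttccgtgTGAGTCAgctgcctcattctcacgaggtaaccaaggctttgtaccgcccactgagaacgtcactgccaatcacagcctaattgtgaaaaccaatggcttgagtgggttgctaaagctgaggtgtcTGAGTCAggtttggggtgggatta
Axl (chr7:25788734-25788983, minus strand): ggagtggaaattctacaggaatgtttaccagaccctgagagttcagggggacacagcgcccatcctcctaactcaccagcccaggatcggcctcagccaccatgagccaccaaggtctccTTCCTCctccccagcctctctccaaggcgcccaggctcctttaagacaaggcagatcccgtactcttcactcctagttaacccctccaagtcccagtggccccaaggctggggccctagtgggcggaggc
Olr1 (chr6:129507166-129507415, minus strand): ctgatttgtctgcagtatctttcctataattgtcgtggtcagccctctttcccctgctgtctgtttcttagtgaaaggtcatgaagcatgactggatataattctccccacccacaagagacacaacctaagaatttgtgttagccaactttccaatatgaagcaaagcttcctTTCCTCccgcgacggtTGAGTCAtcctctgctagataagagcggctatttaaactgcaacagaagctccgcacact

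Positions are counted from the transcription start, so that the last base before it is -1. The Cd68 promoter held 2 AP-1 matches, beginning at -149 and -24, and 1 PU.1 core beginning at -225. The Axl promoter held 1 PU.1 core beginning at -130. The Olr1 promoter held a PU.1 core beginning at -76 and an AP-1 match beginning at -60. AP-1 letters were found in 6.75% and the PU.1 core in 23.3% of the 32851 promoters of the table cut to the same length. The E-box CACGTG, the letters bound by MiT/TFE and Myc factors, was in 6.02% of them and in none of the 7 receptor promoters searched. Among the other receptor promoters searched, that of Marco held 1 PU.1 core and those of Cd36, Mertk and Stab2 held none of these motifs. Msr1 and Scarb1 had no promoter among those available. Receptor promoters on chromosome 18, where Colec12 lies, were left out of the search, so none is reported for Colec12. The Cd36 window, chr5:17835897-17836146, lay within the annotated gene, and the annotated 5′ end of Cd36 was not searched. These matches describe letters in a window and not bound sites.

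Library depth ranged from 16.6 M to 32.9 M gene counts, with vehicle animal 2 at 32.9 M and the others between 16.6 M and 19.4 M. Of the macrophage and microglia markers, 8 of 8 were tested, and none of them was at 0 in any library. No tissue from outside the infarct was compared here, so their presence does not verify the infarct label. Markers of neural tissue differed widely between libraries. Of 8 neuronal markers, 6 passed the filter, and their list summed to 5970 CPM in the third vehicle library, 948 CPM in the first and 7.78 to 81.6 CPM in the other libraries, with Nefm at 0 in at least 1 library. Astrocyte markers, 6 of 6 tested and detected in every library, summed to 1900 to 9310 CPM with vehicle and 354 to 2310 CPM with HPβCD. Oligodendrocyte markers, likewise 6 of 6, summed to 1510 to 4860 CPM with vehicle and 158 to 1930 CPM with HPβCD. None of these glial markers was called by edgeR, all 12 had fitted log2 fold changes below 0, and their part in the receptor differences was not tested. Each fitted receptor difference is also given without vehicle animals 1 and 3, which had the highest neuronal sums. This does not remove the glial difference. The remaining vehicle animals 2 and 4 had oligodendrocyte sums of 2250 and 3030 CPM and astrocyte sums of 1900 and 3340 CPM. Vehicle animal 3 held the lowest vehicle value for 6 of the 9 tested receptor genes, against 39.5% of all tested genes, and vehicle animal 2 held the highest for 8 of the 9, against 27.2%. In bulk tissue, fewer cells of a type cannot be told apart from less RNA per cell.

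Cd36 (ENSMUSG00000002944, GRCm38 chromosome 5, 17781690 to 17888801, minus strand), which binds oxidised low-density lipoprotein and long-chain fatty acids, had the highest mean level per kilobase of the 10 genes. Its levels were 421, 1104, 298 and 566 CPM in vehicle animals 1 to 4 and 731, 972, 856 and 914 CPM in HPβCD animals 1 to 4. Vehicle animal 2 exceeded all HPβCD infarcts, and the other 3 vehicle infarcts lay below them. The fitted log2 fold change was 0.54 (SE 0.37, 95% interval -0.30 to 1.37, edgeR adjusted p = 0.379). Without vehicle animal 2 it was 1.02 (edgeR adjusted p = 0.0534), and without vehicle animals 1 and 3 it was 0.07, so the size of the difference depended on which vehicle infarcts were included. The vehicle values spanned a 3.71-fold range and the HPβCD values a 1.33-fold range.

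Scarb1 (ENSMUSG00000037936, chromosome 5, 125277087 to 125341094, minus strand) encodes the high-density lipoprotein receptor, which exchanges cholesterol esters and free cholesterol with lipoproteins. Its levels were 38.4, 47.7, 26.3 and 38.6 CPM with vehicle and 85.3, 69.4, 66.3 and 40.3 CPM with HPβCD. HPβCD animals 1 to 3 lay above the vehicle range, and HPβCD animal 4 lay inside it. The fitted log2 fold change was 0.79 (SE 0.25, 95% interval 0.21 to 1.36), with an unadjusted p of 0.0129 and an edgeR adjusted p of 0.0963. DESeq2, the tool used in the study, and limma-voom each placed it past the threshold, with adjusted p-values of 0.038 and 0.0199. Without vehicle animals 1 and 3 the edgeR log2 fold change was 0.61.

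Cd68 (ENSMUSG00000018774, chromosome 11, 69664213 to 69666153, minus strand) encodes macrosialin and is widely used as a phagocyte marker. Its levels were 103, 152, 115 and 142 CPM with vehicle and 223, 224, 309 and 187 CPM with HPβCD. All 4 HPβCD infarcts were above all 4 vehicle infarcts, and the fitted fold was 1.84 (95% interval 1.35 to 2.5). On the log2 scale this was 0.88 (SE 0.20), with an unadjusted p of 0.00159 and an edgeR adjusted p of 0.0567. Leaving out 1 animal at a time moved it between 0.72 and 0.98, and without vehicle animal 2 the edgeR adjusted p was 0.0498, in a fit that called 1.39% of all tested genes higher. The adjusted p was 0.00227 by DESeq2 and 0.0107 by limma-voom. Without vehicle animals 1 and 3 the log2 fold change was 0.70 (edgeR adjusted p = 0.12). Summed markers of macrophages and microglia ranged from 1480 to 2380 CPM with vehicle and from 2130 to 3460 CPM with HPβCD, and the ratios of Cd68 to these markers are given further on.

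Axl (ENSMUSG00000002602, chromosome 7, 25757273 to 25788705, minus strand), whose ligand is Gas6, was at 586, 612, 373 and 669 CPM with vehicle and at 747, 946, 938 and 872 CPM with HPβCD. The groups did not overlap, and vehicle animal 3 was the lowest infarct. The log2 fold change was 0.64 (SE 0.20, 95% interval 0.18 to 1.10), with an unadjusted p of 0.0121 and an edgeR adjusted p of 0.0948. DESeq2 and limma-voom gave adjusted p-values of 0.0286 and 0.0376, and without vehicle animals 1 and 3 the edgeR log2 fold change was 0.47. Axl is also expressed by cells other than macrophages, including fibroblasts and endothelium. Summed fibroblast markers, all 6 of which were detected in every library, ranged from 2330 to 6010 CPM with vehicle and from 8650 to 9260 CPM with HPβCD, and their part in the Axl difference was not tested.

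Mertk (ENSMUSG00000014361, chromosome 2, 128698956 to 128802894, plus strand), the related kinase that resident microglia and tissue macrophages use to engulf dying cells, was at 82.0, 144, 116 and 118 CPM with vehicle and at 111, 149, 204 and 181 CPM with HPβCD. HPβCD animals 2, 3 and 4 lay above the vehicle maximum and HPβCD animal 1 lay inside the vehicle range. It had a log2 fold change of 0.48 (SE 0.23, 95% interval -0.03 to 1.00, edgeR adjusted p = 0.206), and without vehicle animals 1 and 3 it was 0.31.

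**Figure D1:**
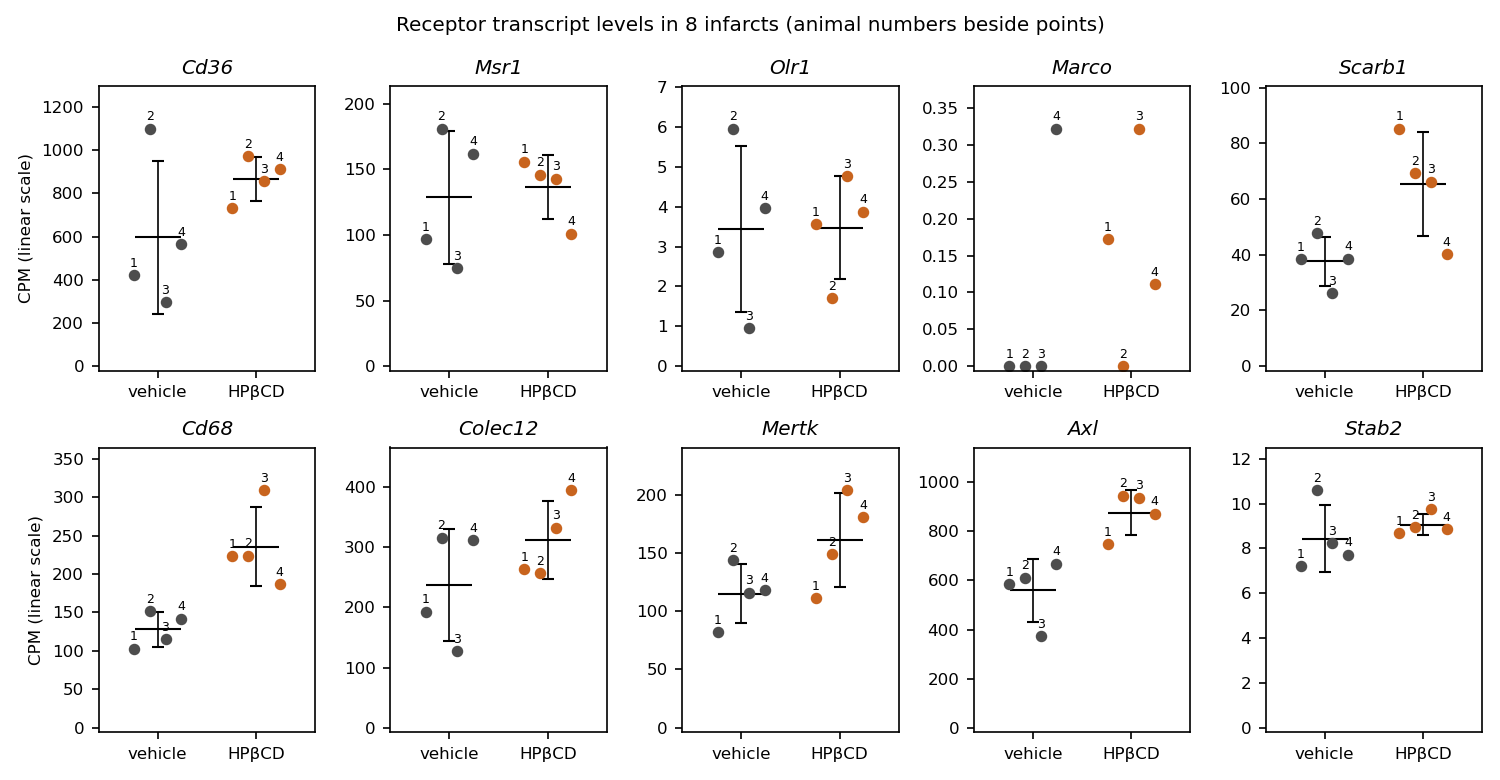
Transcript level of each of the 10 receptor genes in CPM on a linear axis, 1 point per infarct with the animal number, for the vehicle and the HPβCD group. Horizontal bars are group means and error bars are SD (n = 4), not drawn for Marco, which was at 0 in some libraries. For Cd68 the 4 HPβCD infarcts, from 187 to 309 CPM, sit above the 4 vehicle infarcts, from 103 to 152 CPM, whereas for Msr1 and Olr1 the groups overlap.

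The 3 class A receptor genes did not separate the groups. Msr1 (ENSMUSG00000025044, chromosome 8, 39581685 to 39642673, minus strand), which takes up acetylated and oxidised lipoproteins, was at 96.7, 181, 74.9 and 162 CPM with vehicle and at 156, 146, 143 and 101 CPM with HPβCD. The HPβCD values lay within the vehicle range. Its fitted log2 fold change was 0.08 (SE 0.29, 95% interval -0.57 to 0.73, edgeR adjusted p = 0.882) and was -0.31 without vehicle animals 1 and 3. An interval of this width does not show that Msr1 was equal in the groups.

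Colec12 (ENSMUSG00000036103, chromosome 18, 9707595 to 9882644, plus strand) encodes a collectin that acts as a scavenger receptor and is expressed by vascular cells. It was at 193, 316, 127 and 312 CPM with vehicle and at 264, 257, 333 and 395 CPM with HPβCD. The groups overlapped, with HPβCD animals 3 and 4 above all vehicle infarcts. The log2 fold change of 0.39 (SE 0.30, 95% interval -0.28 to 1.07, edgeR adjusted p = 0.431) was 0.00 without vehicle animals 1 and 3. Marco (ENSMUSG00000026390, chromosome 1, 120474538 to 120505024, minus strand), a receptor of selected macrophage subsets, had 0, 0, 0 and 6 counts with vehicle and 3, 0, 6 and 2 counts with HPβCD. It did not pass the filter on low counts, and a difference was not detectable at this depth.

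Olr1 (ENSMUSG00000030162, chromosome 6, 129485244 to 129507165, minus strand), the lectin-like receptor for oxidised low-density lipoprotein known from endothelium and activated macrophages, was at 2.87, 5.96, 0.962 and 3.97 CPM with vehicle and at 3.56, 1.71, 4.77 and 3.88 CPM with HPβCD. All HPβCD values lay within the vehicle range. The log2 fold change was 0.00 (SE 0.51, 95% interval -1.16 to 1.16, edgeR adjusted p = 0.996), an interval that holds a doubling in either direction, and was -0.50 without vehicle animals 1 and 3. Stab2 (ENSMUSG00000035459, chromosome 10, 86841198 to 87008025, minus strand) was at 7.21, 10.6, 8.24 and 7.73 CPM with vehicle and at 8.67, 8.94, 9.76 and 8.87 CPM with HPβCD. Its log2 fold change was 0.10 (SE 0.17, 95% interval -0.29 to 0.48, edgeR adjusted p = 0.759) and was -0.01 without vehicle animals 1 and 3. An antisense gene on the opposite strand, Gm16268, covers 1.61% of its exonic length. All 8 endothelial markers were detected in every library, with sums from 458 to 553 CPM with vehicle and from 516 to 858 CPM with HPβCD, while the sinusoidal character of any Stab2-positive cell was not measured.

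**Figure D2:**
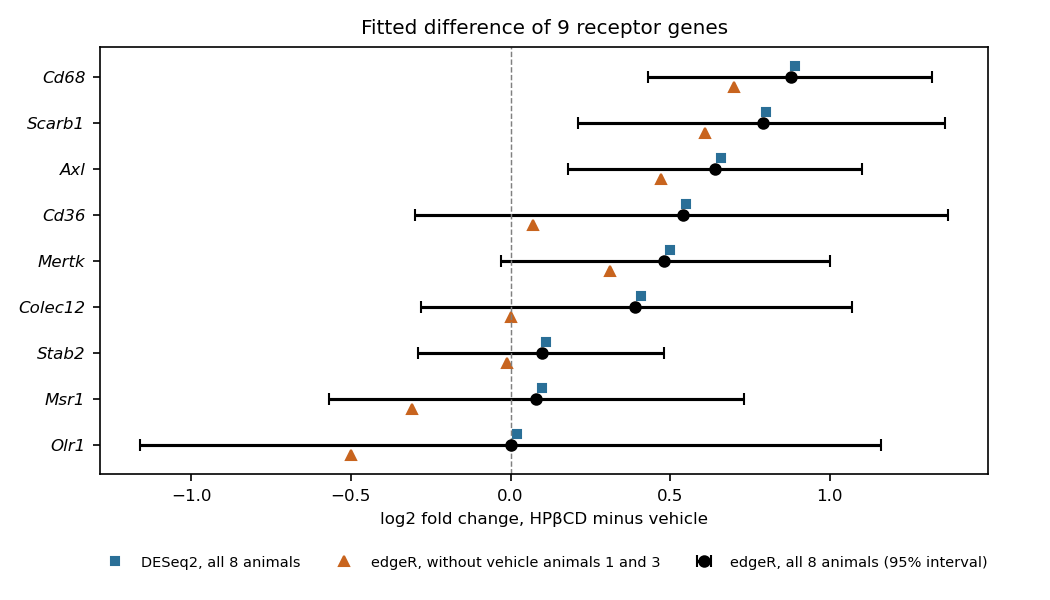
Fitted log2 fold change (HPβCD minus vehicle) of the 9 tested receptor genes. Black circles with bars are edgeR estimates with 95% intervals over all 8 animals, squares are DESeq2 estimates, triangles are edgeR estimates without vehicle animals 1 and 3, and the dashed line marks 0. The intervals of Cd68, Scarb1 and Axl lie above 0, and the triangles of Msr1 and Olr1, at -0.31 and -0.50, lie below it.

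The 3 receptor genes Cd68, Axl and Scarb1 had an unadjusted edgeR p under 0.05 with a higher level in the HPβCD group, against 11.8% of all tested genes. The same 3 were past the adjusted threshold with DESeq2 and with limma-voom. DESeq2 called 3.83% of its 26507 genes, not filtered on low counts, higher and 11.0% in either direction. Limma-voom called 10.9% of its 14736 genes higher and 22.1% in either direction. With edgeR the shares of all tested genes called were 1.17% higher and 0.774% lower. Non-overlapping groups, found for Cd68 and Axl, occurred in either direction in 16.8% of all tested genes.

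Per kilobase of exon, the receptor transcripts stood at 5 levels whose ranges over the 8 infarcts did not overlap. Cd36 averaged 204 CPM per kb over the 8 infarcts, Cd68 averaged 145 and Axl 143. Mertk, Colec12 and Msr1 followed at 31.8, 31.5 and 20.9 CPM per kb, and Scarb1 stood alone at 6.06. Stab2 and Olr1 averaged 0.999 and 0.969 CPM per kb, and Marco 0.0602. The ranges of Cd36 and Cd68 overlapped, as did those of Cd68 and Axl, of Mertk and Colec12 and of Stab2 and Olr1. The ranges of Colec12 and Msr1 overlapped too, yet Colec12 was the higher of the pair in 8 of 8 infarcts. Summed over the 10 genes, the level was 378, 656, 306 and 499 CPM per kb with vehicle and 622, 733, 789 and 687 with HPβCD, so vehicle animal 2 lay inside the HPβCD range.

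Cd36, Cd68 and Axl together made up most of this sum in both groups. The share of Cd36 averaged 34.1% ± 8.71 with vehicle and 34.2% ± 3.36 with HPβCD (SD, n = 4 each), and that of Cd68 averaged 23.2% ± 4.85 and 26.4% ± 4.26. The share of Msr1 was 3.86% to 5.11% in vehicle infarcts and 2.31% to 3.94% in HPβCD infarcts, with 1 HPβCD infarct inside the vehicle range. The share of Stab2 was 0.177% to 0.308% with vehicle and 0.139% to 0.159% with HPβCD, without overlap. Shares move against each other by construction, and no test was made of them.

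**Figure D3:**
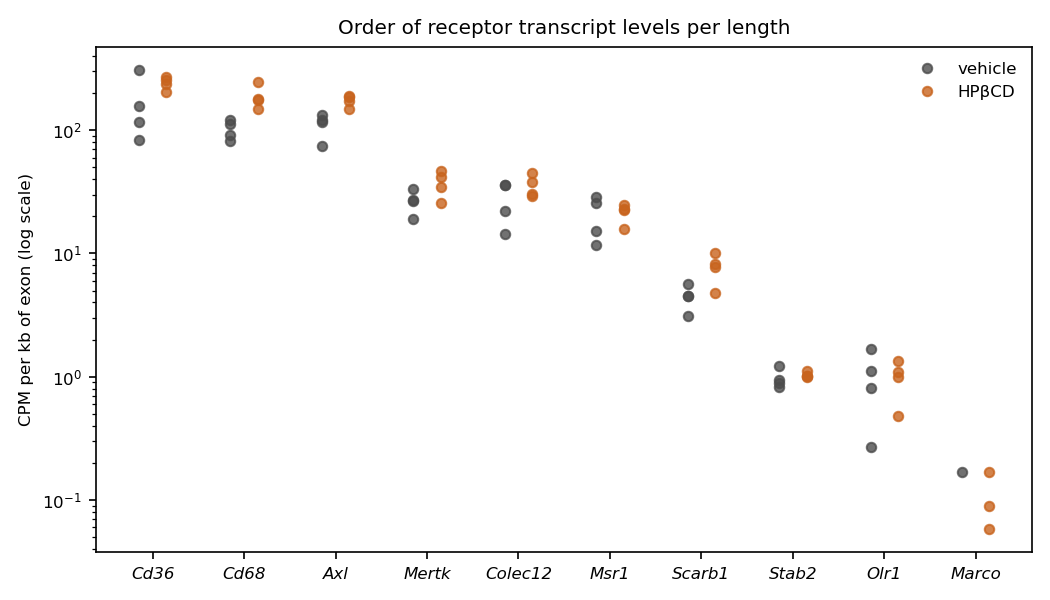
Transcript level of the 10 receptor genes in CPM per kilobase of exon on a log axis, ordered by the mean over 8 infarcts, 1 point per infarct and colour by group. Values of 0, which occurred for Marco, are not drawn. Cd36, Cd68 and Axl lie at 74.2 CPM per kb or more in every infarct, and Stab2, Olr1 and Marco lie at 1.67 CPM per kb or less.

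To set the receptors against marker transcripts, each count was divided by the summed count of 8 macrophage and microglia markers in the same library. The list includes Ptprc, which lymphocytes also express, and the paper reported fewer lymphocytes in infarcts of HPβCD-treated aged mice. Their part in the ratios was not tested. Of the 8 markers, 5 had fitted log2 fold changes above 0 and 3 below, from 0.94 for Tyrobp to -0.36 for Ptprc. Between these lay the 0.88 of Cd68. Cd68 amounted to 5.11, 6.37, 7.78 and 6.53 counts per 100 marker counts with vehicle and to 9.08, 9.01, 8.93 and 8.79 with HPβCD. The HPβCD infarcts were all higher and lay within a narrow band. This was a log2 difference of 0.49, and the 2-sided exact permutation p was 0.0286, the smallest that 4 against 4 animals allow. It is unadjusted, though 9 receptor ratios were tested over each set of macrophage markers used here. Leaving out any 1 vehicle animal gave an exact p of 0.0286, which is also the smallest that 4 against 3 animals allow, and leaving out any 1 HPβCD animal gave an exact p of 0.0571.

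The ratio of Cd68 depended on the macrophage markers chosen. Over 7 foamy macrophage markers, led by Gpnmb, Fabp5 and Spp1, the log2 difference of Cd68 was -0.21 (exact permutation p = 0.114). All 7 were detected in every library. Their summed level was 6920 to 12900 CPM with vehicle and 15900 to 27500 CPM with HPβCD, without overlap. Of the 7, 1 was called higher, Gpnmb (log2 fold change 1.38, edgeR adjusted p = 0.0483, background 1.17%). Fitted log2 fold changes were above 0 for 6 of the 7 and below 0 for 1, and that of Spp1 was 0.09. Over 7 border macrophage markers, led by Mrc1, F13a1 and Cd163, the log2 difference of Cd68 was 0.84 (exact permutation p = 0.0286). These markers summed to 142 to 338 CPM with vehicle and 176 to 247 CPM with HPβCD. Of 6 homeostatic microglia markers, all tested and detected in every library, 1 was called lower, the lectin Siglech (background 0.774%).

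No other receptor ratio to macrophage and microglia markers reached an exact p under 0.05. The log2 differences were 0.39 for Scarb1 (exact permutation p = 0.143), 0.32 for Cd36 (exact p = 0.343) and 0.29 for Axl (exact p = 0.143). They were 0.10 for Mertk and 0.08 for Colec12, and -0.19, -0.23 and -0.27 for Olr1, Msr1 and Stab2. These 8 values were not told apart from 0. Over the foamy markers all 9 receptor differences were below 0 and over the border macrophage markers all 9 were above 0. Changing the markers moves all 9 differences by the same amount, so these signs are not 9 separate results. Over the foamy markers the differences of Msr1 and Stab2 were -0.93 and -0.97, with all HPβCD infarcts below all vehicle infarcts (exact permutation p = 0.0286 each). Over the border macrophage markers Cd36 differed by 0.67 (exact permutation p = 0.0286). The p-values over foamy and border markers were unadjusted and also carried the difference between the groups in those marker sums.

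**Figure D4:**
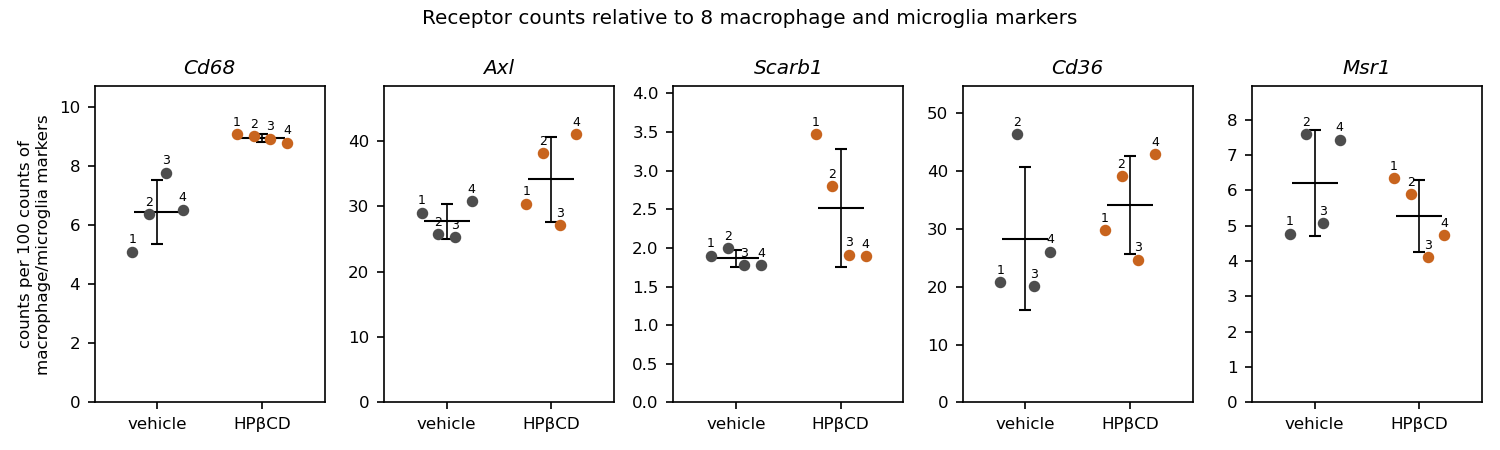
Counts of Cd68, Axl, Scarb1, Cd36 and Msr1 per 100 summed counts of 8 macrophage and microglia markers, 1 point per infarct with the animal number, linear axes from 0. Horizontal bars are group means and error bars are SD (n = 4). Cd68 lies between 8.79 and 9.08 in the HPβCD group and between 5.11 and 7.78 in the vehicle group, and the groups overlap for the other 4 genes.

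Other scavenger receptors were examined as a list of 13 genes, of which 12 were tested, 2 were called higher and 0 lower (background 1.17% and 0.774%), with a median log2 fold change of 0.49. Cd163 and Mrc1 also stand in the border macrophage list. Stab1, the relative of Stab2 found on macrophages and sinusoidal endothelium, rose from 110, 161, 135 and 167 CPM with vehicle to 412, 413, 453 and 218 CPM with HPβCD. All 4 HPβCD infarcts exceeded the vehicle range (fitted log2 difference 1.38, SE 0.25, edgeR adjusted p = 0.0483). Lrp1, a large endocytic receptor for lipoproteins and myelin debris, rose from 609, 759, 1020 and 752 CPM to 1780, 2050, 1870 and 1200 CPM (fitted log2 difference 1.13, SE 0.23, edgeR adjusted p = 0.0499). Both calls lay close to the threshold. They were lost without vehicle animal 1 or 4 or HPβCD animal 1, 2 or 3, and that of Lrp1 also without vehicle animal 2, with edgeR adjusted p-values up to 0.175 for Stab1 and 0.177 for Lrp1, both without HPβCD animal 2. Library totals alone gave edgeR adjusted p-values of 0.0549 for Stab1 and 0.0554 for Lrp1, and without vehicle animals 1 and 3 that of Stab1 was 0.0729. Scara3 lay at 435 to 760 CPM with vehicle and at 990 to 1150 CPM with HPβCD, without overlap (background 8.85%). It had a log2 fold change of 0.75, with adjusted p-values of 0.07 by edgeR, 0.00615 by DESeq2 and 0.0125 by limma-voom. Scarb2, the lysosomal relative of Scarb1, had a log2 fold change of 0.36 (edgeR adjusted p = 0.181).

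Of 12 bridging ligands and engulfment genes, all tested, 1 was called higher and 0 lower (background 1.17% and 0.774%), and the median log2 fold change was 0.34. The called gene was Itgb5, an integrin subunit that pairs with Itgav to bind Mfge8 on apoptotic cells. Its levels were 187, 205, 179 and 219 CPM with vehicle and 341, 335, 342 and 267 CPM with HPβCD, without overlap (fitted log2 difference 0.70, SE 0.14, edgeR adjusted p = 0.0483). The call was lost without vehicle animal 1, 2 or 4 or HPβCD animal 1, 2 or 3, with an edgeR adjusted p of up to 0.177, reached without HPβCD animal 2, and also without vehicle animals 1 and 3 together, with library totals alone and with no filter on low counts (edgeR adjusted p = 0.0921, 0.0694 and 0.067). Its partner Itgav had a log2 fold change of 0.03, Mfge8 one of 0.69 and Pros1, which encodes protein S, one of 0.74, with edgeR adjusted p-values of 0.904, 0.113 and 0.11.

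None of 8 regulators and sheddases was called, with a median log2 fold change of 0.34. Among the most abundant, the protease Adam10 had a log2 fold change of 0.26, the antioxidant regulator Nfe2l2 one of 0.27 and the protease Adam17 one of 0.12. None of 7 Cd36 signalling partners was called, with a median of 0.14. Fabp5, a carrier of fatty acids that also stands in the foamy macrophage list, was at 1090, 920, 2030 and 1670 CPM with vehicle and at 5950, 3630, 4410 and 1970 CPM with HPβCD, with HPβCD animal 4 inside the vehicle range (fitted log2 difference 1.48, SE 0.38, edgeR adjusted p = 0.0688). The membrane organiser Cd9 and the kinase Lyn had log2 fold changes of 0.24 and 0.05. In these 2 lists 2 genes each had an unadjusted p under 0.05, against 27.8% of all tested genes.

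The genes whose pattern over the 8 infarcts lay closest to each receptor were found by the mean absolute difference of log2 CPM after centring each gene, among the 10994 genes averaging 5 CPM or more. Those closest to Cd68 were Hexa and Ucp2, at 0.046 and 0.049, where the median over all compared genes was 0.47. Those closest to Cd36 were Tlr8 and Ror1, at 0.132 and 0.143 (median 0.54), and those closest to Axl were Rasa4 and Cd63, at 0.072 and 0.077 (median 0.38). Mertk lay nearest Ncoa4 and Fam83f, Scarb1 nearest Plp2 and Tagln2, and Msr1 nearest Plau and Mrc1, the last a border macrophage marker. Colec12 lay nearest Cebpb and Pkib, and Stab2 nearest Aldh9a1 and Gmpr2. These distances are descriptions over libraries that share their tissue composition and depth, and they carry no test.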

How the data were processed

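The authors dissected infarcts by eye, made stranded mRNA libraries and deposited raw counts per gene, 1 table per animal. Per the submitters' processing notes, reads were trimmed with Trimmomatic 0.32, aligned to GRCm38 with STAR 2.5.2b and counted with HTSeq, whose strand setting is not given in the sources used here. The 5 lines of reads assigned to no gene (26.6% to 36.6%) were left out. Groups came from the sample labels, and 45143 of 46078 identifiers matched a symbol. Between no 2 libraries was chi-square per degree of freedom below 20.3, so all 8 were treated as separate animals. The labels give no batch.

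Differences were tested with edgeR 4.0.16 in R 4.3.3 (robust quasi-likelihood F test, TMM factors, filterByExpr, no covariate) over 14736 genes, with Benjamini-Hochberg adjustment and a threshold of 0.05. CPM used the TMM-scaled library size, and log2 CPM a prior count of 2. DESeq2 1.42.0 and limma 3.58.1 (voom with sample quality weights) were alternatives. Ratios to markers were compared by exact 2-sided permutation over 70 assignments. The procedure was tested on simulated data. Promoters came from RefSeq. Gene lengths are unions of annotated exons. Counting intervals are not given, since reads carry no molecular identifiers.

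The receptor genes, the other lists and the choice to leave out vehicle animals 1 and 3 were made with earlier results of these data known. Named were all 10 receptors, up to 5 called genes and the 3 most abundant of each list, and the 2 genes most like each receptor with at least 5 CPM. Gas6, a ligand of Axl, is named as background, and Tyrobp and Ptprc as the ends of the macrophage and microglia list. From the regulator and the homeostatic microglia lists 1 gene each is not reported here, and neither enters its list's counts or median.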

Additional observations from a re-analysis of the deposited data

Results flagged for a closer look

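Among 58 groups of 4 values examined (log2 CPM of the receptors, their ratios to macrophage and microglia markers, and summed cell type markers), 2 held an animal far from the other 3, where chance gives about 1 in 20 groups, or 2.9. The log2 CPM of Marco was -1.24 in vehicle animal 4 and -3.31 in the other vehicle infarcts, which had 0 counts each, so the gap rests on 6 counts. The log2 ratio of Colec12 to macrophage and microglia markers was -2.43 in HPβCD animal 4 and between -3.38 and -3.22 in the other HPβCD infarcts. Without that animal the log2 difference between the groups in this ratio was -0.13, where all animals gave 0.08.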

How the results depend on the processing

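The count of genes called between HPβCD and vehicle infarcts, 287 with edgeR, was 2911 with DESeq2, 3253 with limma-voom and 11 with library totals alone, and 0 to 629 when 1 animal was left out (0 without vehicle animal 1 or 4 or HPβCD animal 2 or 3, and 4, 556 and 629 when the omitted library was HPβCD 1, vehicle 2 or vehicle 3). The cause was not tested. The count of receptor genes called was 3 with DESeq2 and with limma-voom, and 0 to 1 when 1 animal was left out, the 1 being Cd68 without vehicle animal 2. The replicate numbers were also fitted as a block, which called 9 genes, none of them a receptor gene, and under which Stab1, Lrp1 and Itgb5 had edgeR adjusted p-values of 0.0876, 0.0871 and 0.0952. Correlations of same-numbered animals were mixed, at -0.257, 0.244, 0.329 and 0.0974, and 2 of 4 libraries correlated best with their own number. These values do not settle whether the numbers mark pairs.

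The log2 fold change turned below 0 for Msr1 with limma-voom (-0.04), library totals (-0.02) and without vehicle animal 1 (-0.02), 3 (-0.10) or both (-0.31), and for Stab2 without both (-0.01). The same held for Itgav with library totals (-0.06), without vehicle animal 3 (-0.04) or both (-0.02), for Cd9 with limma-voom (-0.04), and for Lyn with limma-voom (-0.21), library totals (-0.05), without vehicle animal 3 (-0.18), HPβCD animal 3 (-0.02) or vehicle animals 1 and 3 (-0.23). With 1 animal left out Msr1 ranged from -0.10 to 0.30, Itgav from -0.04 to 0.07 and Lyn from -0.18 to 0.18. Without vehicle animals 1 and 3, Adam10, Nfe2l2 and Adam17 were at -0.03, -0.04 and -0.10, and Adam17 was at -0.04 with limma-voom and, with 1 animal left out, from -0.05 (vehicle animal 3) to 0.24. The estimate for Olr1 ranged from -0.60 to 0.42. The log2 fold changes of Cd68, Axl, Scarb1, Cd36 and Mertk stayed above 0 under every alternative run.

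Ratios over foamy markers in place of macrophage and microglia markers were -0.38 for Cd36, -0.93 for Msr1, -0.31 for Scarb1, -0.21 for Cd68, -0.61 for Colec12, -0.60 for Mertk, -0.41 for Axl and -0.97 for Stab2. Over border markers they were 0.67 for Cd36, 0.12 for Msr1, 0.16 for Olr1 and 0.08 for Stab2. With 1 animal left out the ratio ranged from 0.38 to 0.59 for Cd68, -0.57 to 0.10 for Olr1 (0.08 without vehicle animal 2, 0.10 without HPβCD animal 2), -0.13 to 0.21 for Colec12 (-0.04 without vehicle animal 3, -0.13 without HPβCD animal 4) and -0.07 to 0.25 for Mertk (-0.07 without vehicle animal 1 or HPβCD animal 4). Sign flips within numbers as a block allow no p under 0.125, and 4 against 2 animals none under 0.0667, so those were values with no test (Cd68: 0.49 and 0.47). Without vehicle animals 1 and 3 the ratio of Cd36 was -0.06 and that of Colec12 -0.22, both below 0, and those of Msr1 and Olr1 were -0.53 and -0.77. Filters, DESeq2 size factors and thinning to the smallest library changed no receptor call. Depth limits Marco, untested, and Olr1.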
